A study of Mus musculus with 14 samples.

Results

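The genes described here are the 60 protein-coding genes of the Wnt signaling pathway chosen by symbol from the 55487 genes of the deposited count table: 19 Wnt ligands, 10 frizzled receptors, the co-receptors Lrp5 and Lrp6, 13 secreted antagonists, 7 R-spondins and R-spondin receptors, and 9 intracellular effectors and feedback genes. Of these, 49 passed the filter on low values and were tested, among 16915 tested genes. The 11 that did not pass were Wnt1, Wnt3, Wnt3a, Wnt6, Wnt7a, Wnt8a, Wnt8b, Wnt9b, Wnt10a, Dkk4 and Rspo1.

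In the canonical Wnt pathway a secreted Wnt ligand binds a frizzled receptor and an Lrp5 or Lrp6 co-receptor, which spares beta-catenin (encoded by Ctnnb1) from degradation by the Axin-based destruction complex, so that beta-catenin can act with Tcf and Lef factors in the nucleus. Secreted antagonists intercept the ligand (the Sfrp family, Frzb, Wif1), block the co-receptors (the Dkk family, Sost, Sostdc1) or inactivate Wnt enzymatically (Notum), and R-spondins acting through Lgr receptors raise receptor levels at the cell surface. The pathway is known for its parts in cartilage and bone formation, and in the notochord-derived cells of the intervertebral disc (IVD).

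Each library was made from the caudal discs of 1 male mouse, pooled per mouse by the methods. The first cohort held 3 db/db mice, homozygous for the db mutation of the leptin receptor gene Lepr, and 3 heterozygous db/+ littermates, all 3 months old. The second cohort held 4 STZ-HFD mice, C57BL/6J animals that were given a high-fat diet for 4 to 6 weeks, 1 dose of 100 mg/kg streptozocin (STZ, a toxin of insulin-secreting beta cells), and the same diet for a further 12 weeks. Its 4 Con+Veh controls, labelled wild-type, had standard chow and the injection buffer. The mice of the second cohort were 12 weeks old at the start and therefore older at harvest than those of the first, the labels and the methods give different fat shares for the diet, and the leptin receptor mutation acts in every tissue of the db/db mouse. Cohort, age, genotype and diet cannot be told apart where the control groups are set side by side. Discs were harvested whole, so that in these bulk samples fewer cells of a type and less RNA per cell cannot be told apart.

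Library totals ran from 16076908 to 58943169 counts, ribosomal RNA included. Ribosomal RNA genes held 28.06% to 39.65% of the counts in the first cohort and 44.36% to 60.25% in the second. STZ-HFD replicate 1 had the lowest total and stood apart from the rest: 1071 of 1103 olfactory receptor genes had a count there, against 171 to 310 in the other 13 libraries, and 42626 genes were counted, against 25194 to 29924. Con+Veh replicates 3 and 4 had the highest library weights of that group in the fit (3.05 and 1.81) and Con+Veh replicate 1 the lowest (0.275). Muscle markers were present throughout, with a mean level of the 10 listed genes between 5.87 and 9.21 log2 CPM (counts scaled to a common library total). Chondrocyte and osteoblast markers were higher in every library of the first cohort: the mean level of 10 chondrocyte genes was 6.75 to 7.93 log2 CPM in db/+ and db/db and 3.73 to 5.39 in Con+Veh and STZ-HFD, and that of 10 osteoblast and osteocyte genes was 5.29 to 6.53 against 2.91 to 4.32. Of 8 nucleus pulposus and notochord markers 7 were found, at 1.77 to 5.01 log2 CPM on average, and 1 of these 7 had no count in any library of db/+ and 1 had none in db/db. Lepr, whose db allele is a point mutation, stood at 9.63, 6.47 and 6.05 CPM in db/+ and at 4.84, 7.62 and 5.86 CPM in db/db, which overlap, so its gene count does not tell the genotypes apart.

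The sequences below are the 250 bases before the start site of the 4 members whose STZ-HFD libraries all lay below all Con+Veh libraries, printed 5′ to 3′ on the gene's strand from RefSeq, build GRCm38.p6. Capitals mark letters of the Tcf and Lef binding motif, searched as CTTTGAA or CTTTGAT and as CTTTGTA or CTTTGTT, on both strands. Tcf7l2 has 2 start sites in the table.

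Fzd5, chr1:64737751-64738000, strand minus: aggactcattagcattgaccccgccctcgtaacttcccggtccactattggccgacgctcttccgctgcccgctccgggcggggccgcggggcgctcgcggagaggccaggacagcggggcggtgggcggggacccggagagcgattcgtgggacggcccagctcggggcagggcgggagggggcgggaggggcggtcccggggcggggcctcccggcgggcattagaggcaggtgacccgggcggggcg
Lgr4, chr2:109917397-109917646, strand plus: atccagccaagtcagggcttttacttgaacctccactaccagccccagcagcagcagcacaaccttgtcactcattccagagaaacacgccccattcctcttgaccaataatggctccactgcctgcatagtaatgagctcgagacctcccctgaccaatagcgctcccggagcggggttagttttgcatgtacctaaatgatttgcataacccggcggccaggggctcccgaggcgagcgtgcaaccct
Lgr6, chr1:135105277-135105526, strand minus: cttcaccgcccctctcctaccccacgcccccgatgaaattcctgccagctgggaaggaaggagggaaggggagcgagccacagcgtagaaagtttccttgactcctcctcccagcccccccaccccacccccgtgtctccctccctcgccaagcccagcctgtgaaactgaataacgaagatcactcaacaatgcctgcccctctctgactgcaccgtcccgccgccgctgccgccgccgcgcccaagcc
Tcf7l2, chr19:55741560-55741809, strand plus: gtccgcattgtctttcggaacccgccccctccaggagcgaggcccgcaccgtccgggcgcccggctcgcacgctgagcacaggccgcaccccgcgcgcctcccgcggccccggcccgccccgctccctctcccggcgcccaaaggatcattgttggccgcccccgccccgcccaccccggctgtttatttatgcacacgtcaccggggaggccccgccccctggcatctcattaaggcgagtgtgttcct
Tcf7l2, chr19:55895071-55895320, strand plus: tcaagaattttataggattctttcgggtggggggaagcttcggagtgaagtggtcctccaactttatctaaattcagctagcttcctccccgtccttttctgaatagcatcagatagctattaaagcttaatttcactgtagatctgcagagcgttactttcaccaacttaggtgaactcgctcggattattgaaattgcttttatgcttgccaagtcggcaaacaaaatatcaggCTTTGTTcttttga

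A match was found at 1 of these 5 start sites, the downstream one of Tcf7l2, as CTTTGTT. Over the 40 members with a RefSeq promoter, 6 of 49 such windows (12.2%) held the motif, against 14.8% of 32851 promoter windows in all, so the members' share was not above that of other genes. The windows with the motif belong to Dkk1, Fzd7, Lef1, Tcf7l2, Wnt11 and Wnt5b. The members' windows had a median GC content of 66.4%, against 52.4% over all promoters. A match is a string of letters and not a shown binding site.

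Wnt ligands were low in these discs. Levels of different genes are compared as RPKM, the CPM divided by the exon length in kilobases. The most abundant ligand over all libraries was Wnt7b, with a mean of 1.71 RPKM, followed by Wnt2b (1.18) and Wnt5b (0.754). The order differed by group: in db/db Wnt7b (0.551 RPKM) was below Wnt2b (0.898), Wnt5a (0.832) and Wnt5b (0.816), and in Con+Veh Wnt9a (0.960) and Wnt16 (0.806) were above Wnt5b (0.384). All other ligands had lower means over all libraries, down to 0.0327 RPKM for Wnt8a, and 9 of the 11 untested genes were ligands. The leading receptors stood higher, with means over all libraries of 7.87 RPKM for Fzd4, 4.21 for Fzd9 and 4.08 for Fzd7 and of 7.0 and 4.51 RPKM for Lrp5 and Lrp6, while Fzd6 (0.954), Fzd10 (0.811) and Fzd3 (0.482) were below Wnt7b and Wnt2b. The antagonists held the most abundant member of all, Frzb, an Sfrp relative that binds Wnt in cartilage, with a mean of 137.8 RPKM. Its group means were 151 RPKM in db/+, 434 in db/db, 29.2 in Con+Veh and 14.3 in STZ-HFD, there just above Tcf7l2 (13.6). By the mean over all libraries Wif1 (11.6) and Sost (9.08) came next in that class. In Con+Veh, however, Dkk3 (7.87 RPKM), Sostdc1 (6.63) and Sfrp5 (5.95) were above Wif1 (4.08) and Sost (2.59), and in STZ-HFD Wif1 (1.98) and Sost (1.65) were again below these 3. Among effectors the transcription factor genes Tcf7l2 and Tcf7l1 led with 26.0 and 13.5 RPKM, and Ctnnb1 had 9.34. Of the 60 members, 50 had at least 1 count in every library.

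**Figure D1:**
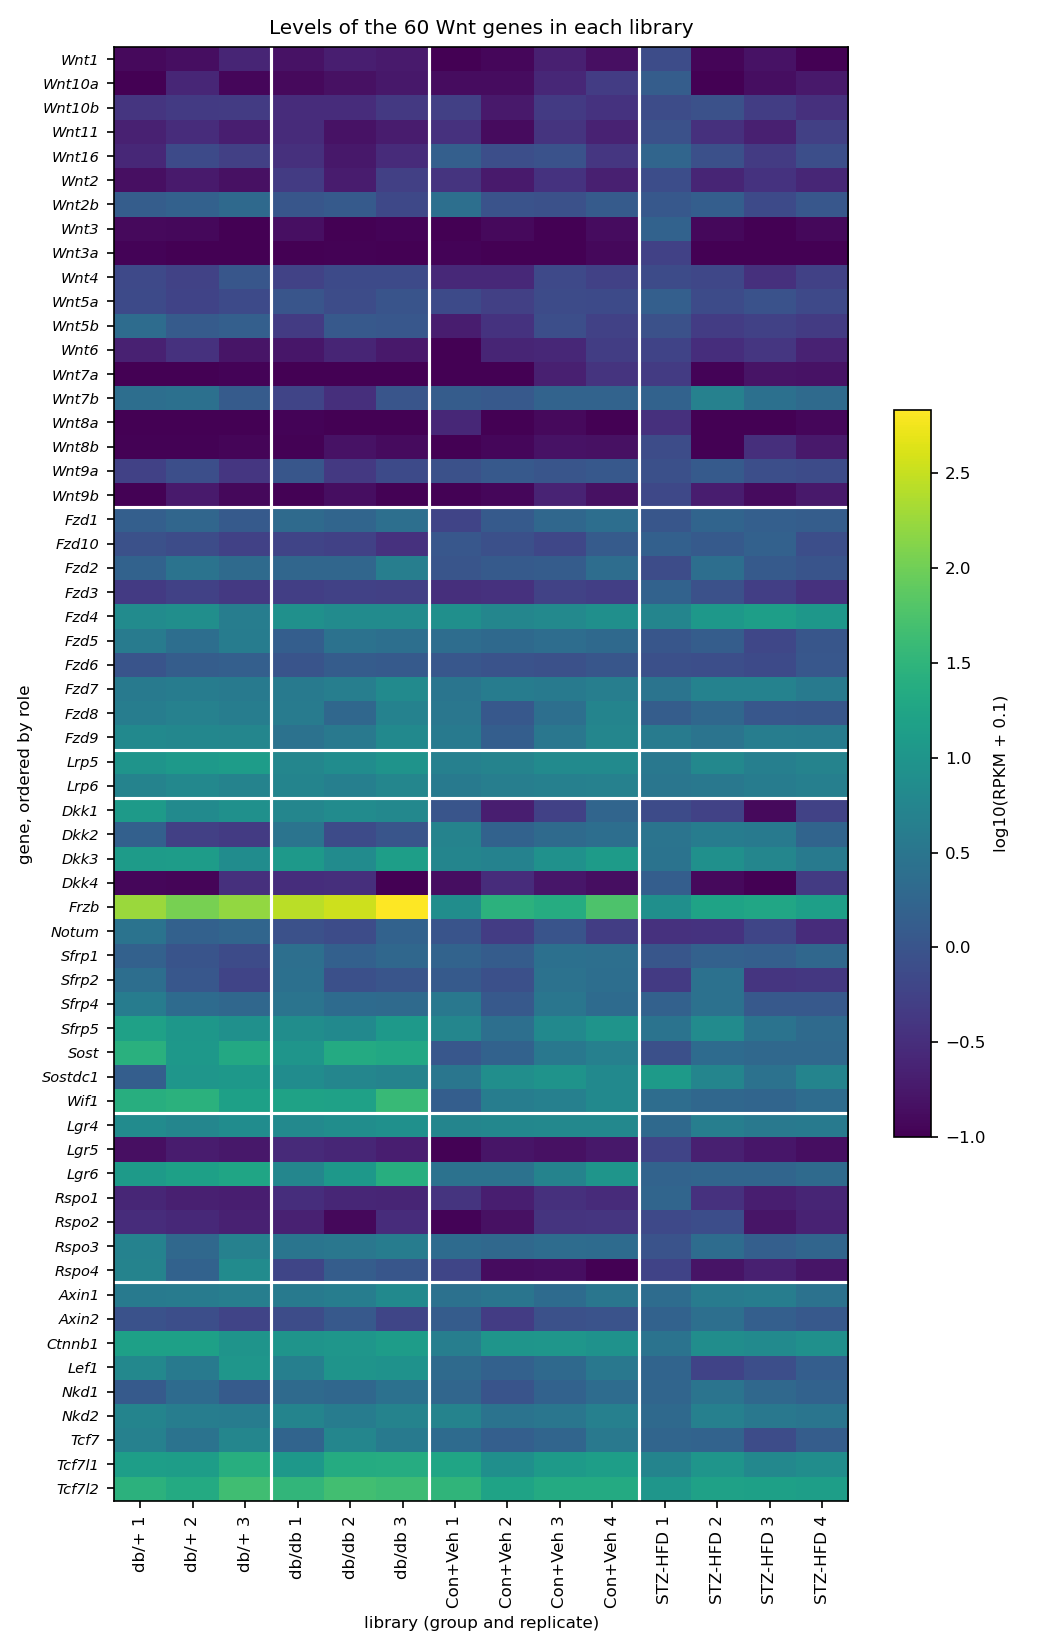
Levels of the 60 members (rows, ordered by role, with white lines between roles) in the 14 libraries (columns, by group), as log10(RPKM + 0.1). Frzb is the brightest row, Wnt ligands are mostly dark, and STZ-HFD replicate 1 is lighter than the other libraries for ligands that are near 0 elsewhere.

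The 11 untested members had 38 to 117 counts in sum in 13 of the libraries, or 0.796 to 3.73 CPM, and 567 counts in STZ-HFD replicate 1, or 23.2 CPM. A count of 3, taken as the floor of detection, corresponded to 0.0509 to 0.187 CPM across libraries. Wnt3, a ligand needed for the early body axis, shows the pattern: it stood at 4.66 CPM in STZ-HFD replicate 1 and at 0 to 0.141 CPM in the other 13. The library that was high for these ligands was also the one with counts on nearly all olfactory receptor genes, and whether the 2 share a source was not tested. Fold changes of the low members Lgr5 and Dkk1 in STZ-HFD are also given without this library.

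**Figure D2:**
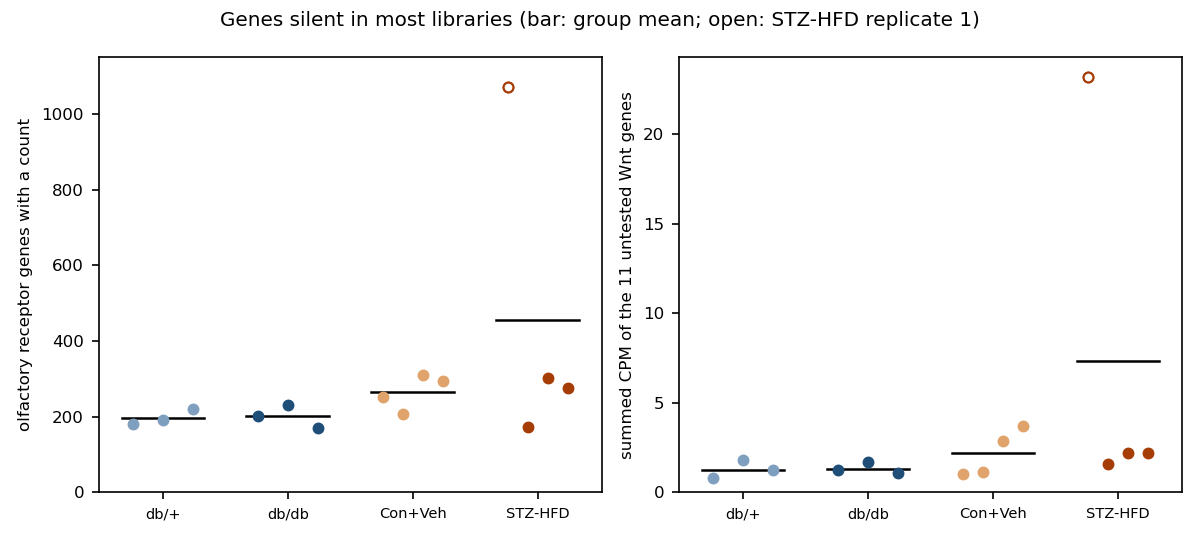
Olfactory receptor genes with a count (left, number of genes) and summed CPM of the 11 untested members (right), with 1 point per library, bars at group means and STZ-HFD replicate 1 as an open circle. That library stands at 1071 genes and 23.2 CPM, and the other 13 lie at 310 genes or fewer and 3.73 CPM or less.

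Of the members, 4 pairs of ligands are close neighbors on a chromosome (GENCODE M21, GRCm38): Wnt6 and Wnt10a on chromosome 1, separated by 6193 bases, Wnt3a and Wnt9a (16175 bases) and Wnt9b and Wnt3 (24328 bases) on chromosome 11, and Wnt10b and Wnt1 on chromosome 15 (11706 bases). Wnt9a and Wnt10b passed the filter on low values and their neighbors did not. Wnt9a averaged 0.489 RPKM in db/+ and Wnt3a 0.00246, and Wnt10b averaged 0.331 RPKM and Wnt1 0.0706. Both pairs were picked by that filter, so their unlike levels are not a separate result. In the other pairs, Wnt6 and Wnt10a averaged 0.146 and 0.06 RPKM in db/+, and Wnt9b and Wnt3 averaged 0.039 and 0.0163.

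In db/db against db/+ the question is what the loss of leptin receptor function, with its obesity and high glucose, goes with in the disc. Of the 49 tested members 2 fell and 0 rose in limma's voomWithQualityWeights fit at a Benjamini-Hochberg adjusted p under 0.05. The 2 that fell were Wnt7b, a ligand, and Rspo4, an R-spondin. Over all tested genes 1.93% passed (1.42% higher and 0.508% lower). At an unadjusted p under 0.05 there were 5 members higher and 7 lower, 12 in all, against 21.1% of all genes (10.7% higher and 10.4% lower). Of the 49 members 26 were below 0, against 52.7% of all genes, and the median log2 fold change of the members was -0.09, against -0.04 over all genes.

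Wnt7b (chr15:85535437-85582473, minus strand) stood at 11.6, 12.4 and 5.75 CPM in db/+ and at 2.49, 1.11 and 4.50 CPM in db/db. All 3 db/db libraries lay below all 3 db/+ libraries, with db/+ replicate 3 nearest to them. The log2 fold change was -2.08 (95% interval -3.00 to -1.16, limma adjusted p = 0.0285). The call was lost without db/db replicate 1 (adjusted p = 0.0910), db/db replicate 2 (0.0903), db/+ replicate 1 (0.0708) or db/+ replicate 2 (0.109), and in edgeR's quasi-likelihood test (0.202), and held in DESeq2 (0.0199). Over all genes 0.125% to 0.856% passed in those 4 fits, against 1.93% with every library. Wnt7b shares 324 exonic bases with the antisense gene AU022754, and the strand setting of the counting is not given in the sources used here.

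Rspo4 (chr2:151842927-151874668, plus strand), an R-spondin best known from nail development, had 11.9, 3.62 and 16.7 CPM in db/+ and 1.24, 2.91 and 2.30 CPM in db/db. The groups did not overlap, but db/+ replicate 2 was close to the db/db values. Its log2 fold change was -2.02 (95% interval -3.09 to -0.96, limma adjusted p = 0.0480). In 10 of the 14 fits that left out 1 library Rspo4 did not pass, with adjusted p between 0.0501 and 0.153 in those fits, and omission of db/db replicate 1 gave the highest. It passed without db/+ replicate 2 or without Con+Veh replicate 1, 2 or 3, and was lost without any other single library. In the second cohort Rspo4 was near the floor: 46, 4, 2 and 0 counts in Con+Veh and 28, 4, 9 and 5 in STZ-HFD, with both high values in libraries listed as replicate 1, and no fold is given.

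Fold changes in db/db also moved with base composition. Over 16899 genes the log2 fold change had a Spearman correlation of -0.43 with GC content, given here as a description across genes of 6 shared libraries, and 33 of the 49 members had a GC content above the median of all genes. With the trend of each library removed, Wnt7b had a log2 fold change of -1.57 (limma adjusted p = 0.0608) and Rspo4 one of -1.70 (adjusted p = 0.123), and 0 of the 49 members passed in that fit, with 11 at an unadjusted p under 0.05. edgeR's quasi-likelihood test on the counts as deposited passed 0 of the 16915 genes in db/db, members included, with 6 members at an unadjusted p under 0.05. DESeq2 passed 1 member, Wnt7b, and 1.35% of all genes.

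Other ligands in db/db did not pass. Wnt2b, a canonical ligand, stood at 5.31, 6.05 and 8.16 CPM in db/+ and 4.10, 4.77 and 2.45 CPM in db/db, without overlap (log2 fold change -0.80, limma adjusted p = 0.150). Wnt5b, a noncanonical ligand of growth plate cartilage, had 5.65, 3.03 and 3.54 CPM against 0.970, 2.84 and 2.69 CPM, again without overlap (-0.95, adjusted p = 0.183). Its relative Wnt5a differed the other way, with 4.90, 3.91 and 4.81 CPM in db/+ and 7.26, 5.40 and 6.86 CPM in db/db (0.52, adjusted p = 0.222). In all, db/db lay above db/+ in every library for 4 members (Wnt2, Wnt5a, Frzb and Lgr5; 14.1% of all genes did so) and below it for 5 (Wnt2b, Wnt5b, Wnt7b, Lrp5 and Rspo4; 11.7% of all genes), shares near those of all genes.

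Frzb, the most abundant member, did not pass but was well separated between the groups. It stood at 579.8, 363 and 528 CPM in db/+ and at 893, 1122 and 2197 CPM in db/db. Every db/db library was above every db/+ library, and db/db replicate 3 alone was far above the other two. The log2 fold change was 1.47 (95% interval 0.36 to 2.57, limma adjusted p = 0.130). In RPKM the group means were 151 ± 35.0 (SD, n = 3) and 434 ± 215 (SD, n = 3). With no filter on low counts (adjusted p = 0.0170) or with the model fitted alone (0.0489) Frzb passed. It did not pass in DESeq2 (0.0848), in edgeR's quasi-likelihood test (0.330) or with the GC trend removed (0.174). Nor did it pass in any of the 14 fits without a single library (adjusted p up to 0.345). Sfrp1, a related Wnt-binding antagonist, had 6.24, 3.86 and 2.80 CPM in db/+ and 10.5, 6.17 and 7.83 CPM in db/db, groups that overlapped slightly at db/+ replicate 1 and db/db replicate 2 (0.97, adjusted p = 0.0983).

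Of the 12 tested antagonists, Frzb and Sfrp1 included, 7 were below 0 in db/db and 5 above, with a median log2 fold change of -0.07. Sost, the osteocyte-made inhibitor sclerostin, had 56.5, 22.2 and 42.7 CPM in db/+ and 20.5, 45.3 and 40.4 CPM in db/db (-0.12, limma adjusted p = 0.890). Dkk1, a ligand of Lrp6 that blocks canonical signaling, had 29.9, 16.6 and 20.4 CPM against 13.7, 17.1 and 14.8 CPM (-0.49, adjusted p = 0.429). Wif1, a Wnt-binding protein of cartilage, had 60.3, 67.9 and 36.7 CPM against 38.7, 37.1 and 93.8 CPM (-0.09, adjusted p = 0.912). The groups overlapped for each of these 3 genes. Over the same libraries 8 of 10 osteoblast and osteocyte markers were below 0 (median log2 fold change -0.79, 0 passing) and 7 of 9 tested chondrocyte markers were (median -0.54, 0 passing). All 10 muscle markers were below 0 (median -0.86, 0 passing), while 7 of 8 adipocyte markers were above 0 (median 1.51, 4 passing higher) and 5 of 7 endothelial markers were (median 0.48, 2 passing higher). Of the 5 tested nucleus pulposus and notochord markers 4 were below 0 (median -0.68, 0 passing). The part of these cell types in the members' values was not tested.

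No frizzled receptor, co-receptor or effector passed in db/db. Lrp5, a co-receptor that governs bone mass, had 93.3, 111 and 127 CPM in db/+ and 54.8, 70.8 and 89.1 CPM in db/db, without overlap (log2 fold change -0.63, 95% interval -1.11 to -0.14, limma adjusted p = 0.137). Lrp6 overlapped, with a log2 fold change of -0.11 (95% interval -0.52 to 0.30, adjusted p = 0.786). The 10 frizzled receptors ran from -0.69 to 0.51 on the log2 scale, and the 9 effectors and feedback genes from -0.33 to 0.54. Among the frizzled receptors, Fzd5 had a log2 fold change of -0.63 (95% interval -1.23 to -0.02, limma adjusted p = 0.222), with overlapping groups. Ctnnb1 had a log2 fold change of -0.28 (95% interval -0.88 to 0.33, adjusted p = 0.613) and Axin2, a feedback inhibitor that canonical signaling induces, one of 0.14 (95% interval -0.57 to 0.85, adjusted p = 0.851).

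**Figure D3:**
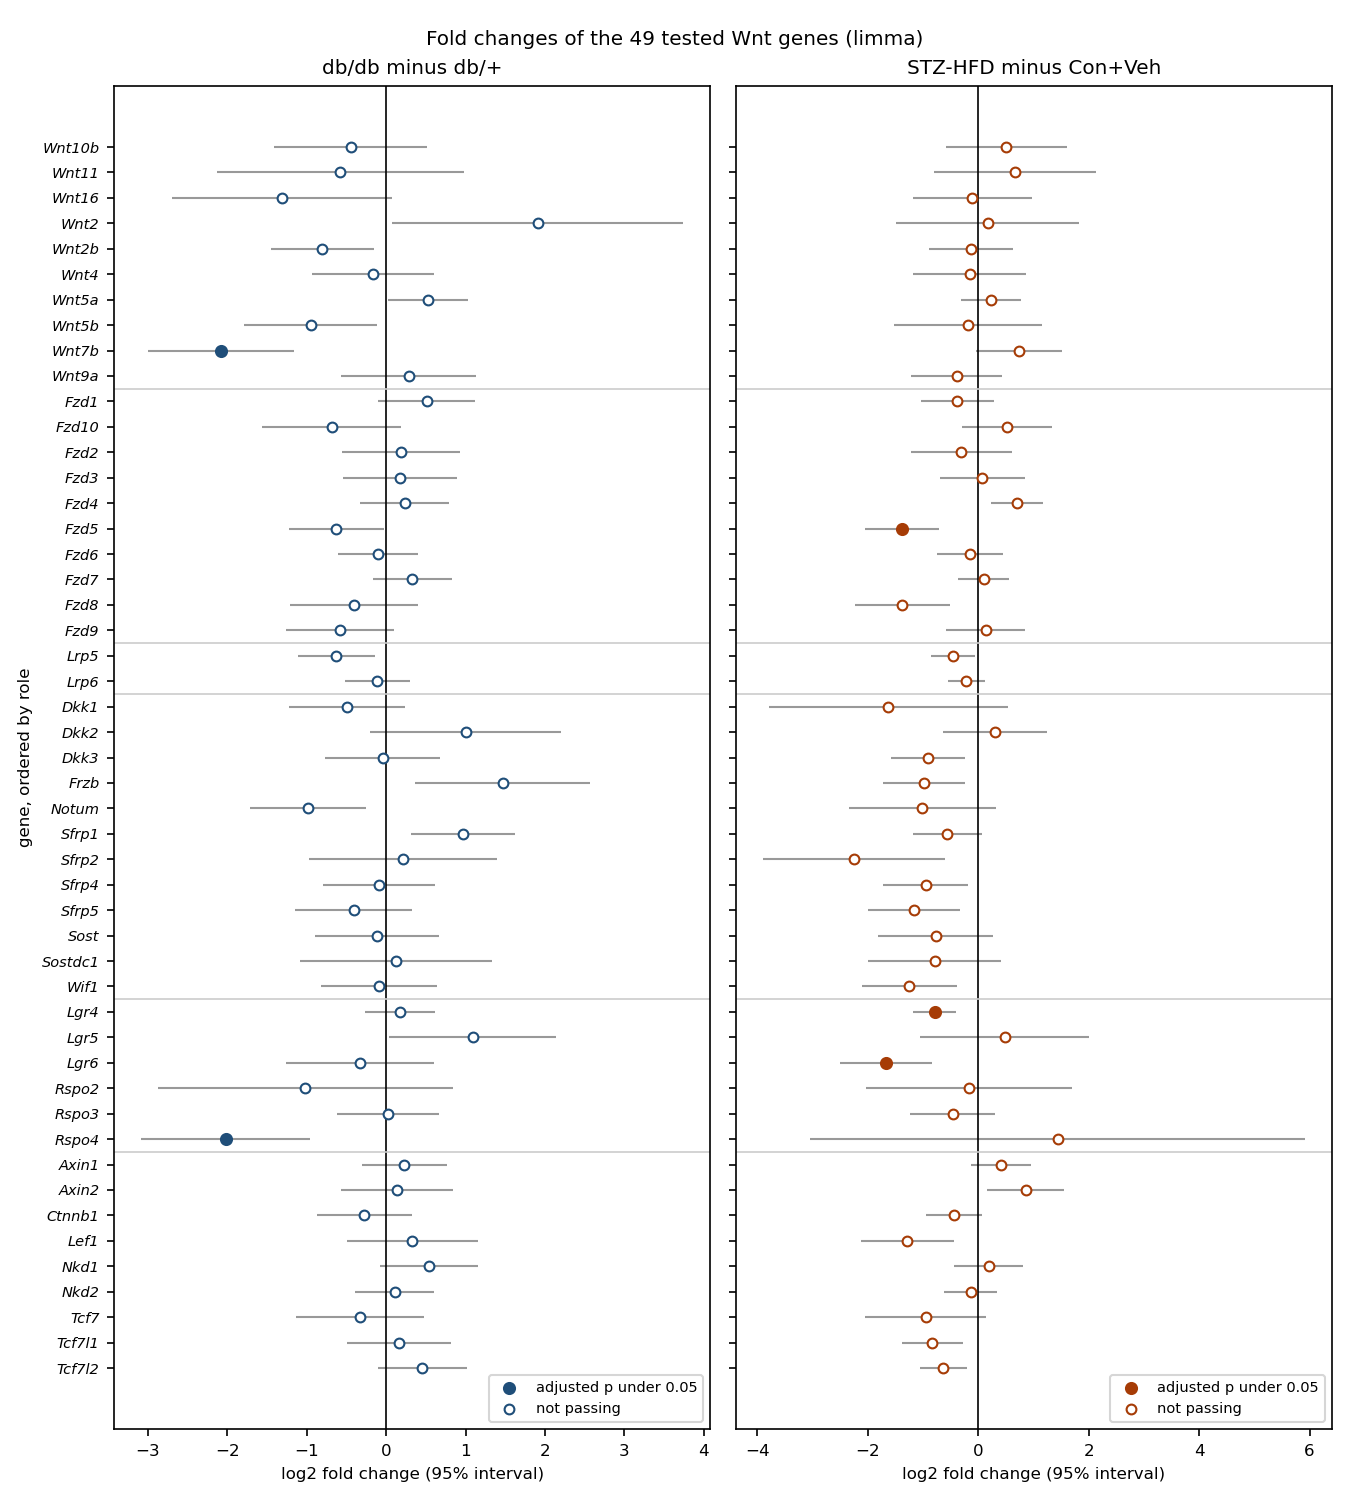
Log2 fold changes of the 49 tested members (rows, ordered by role) with 95% intervals, in db/db minus db/+ (left) and STZ-HFD minus Con+Veh (right), filled where the adjusted p was under 0.05. Filled points are Wnt7b and Rspo4 on the left and Fzd5, Lgr4 and Lgr6 on the right, all below 0, and 11 of 12 antagonists are below 0 on the right.

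In STZ-HFD against Con+Veh the question is what diet and STZ, without a leptin receptor mutation, go with in the disc. Of the 49 tested members 3 fell and 0 rose in the same limma fit: the frizzled receptor gene Fzd5 and the R-spondin receptor genes Lgr4 and Lgr6. Over all tested genes 3.45% passed (1.65% higher and 1.8% lower). At an unadjusted p under 0.05, 2 members (Fzd4 and Axin2) were higher and 14 lower, against 8.34% and 9.54% of all genes (17.9% in all). Of the 49 members 33 were below 0, against 52.8% of all genes, and the median log2 fold change was -0.30, against -0.04 over all genes. STZ-HFD lay below Con+Veh in every library for 4 members (Fzd5, Lgr4, Lgr6 and Tcf7l2), where 2.77% of all genes did, and above it for 0, where 1.97% did.

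Fzd5 (chr1:64730558-64737751, minus strand), a receptor for canonical and noncanonical Wnt ligands, stood at 15.5, 13.5, 15.4 and 13.6 CPM in Con+Veh and at 6.54, 8.72, 3.83 and 6.59 CPM in STZ-HFD. The control values lay close together and all STZ-HFD values were well below them. Its log2 fold change was -1.38 (95% interval -2.04 to -0.71, limma adjusted p = 0.0258). Without STZ-HFD replicate 1 it was -1.45 (adjusted p = 0.0283). Fzd5 was also below 0 by estimate in db/db, and a direct test of a difference between the 2 responses did not pass (-0.75, limma adjusted p = 0.392). Fzd5 shares 1233 exonic bases with the overlapping gene model Gm38058 on the other strand.

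Lgr4 (chr2:109917647-110014257, plus strand), a receptor for R-spondins with broad expression, had 31.6, 34.0, 35.4 and 35.5 CPM in Con+Veh and 11.5, 25.3, 20.0 and 21.5 CPM in STZ-HFD. The 2 groups were apart, with STZ-HFD replicate 1 the lowest. The log2 fold change was -0.78 (95% interval -1.17 to -0.40, limma adjusted p = 0.0281), and without that library it was -0.72 (adjusted p = 0.0314). In DESeq2 Lgr4 had an adjusted p of 0.0612.

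Lgr6 (chr1:134983301-135105276, minus strand), the third receptor of that family, had 18.2, 18.3, 34.5 and 67.2 CPM in Con+Veh and 10.7, 11.5, 11.5 and 13.8 CPM in STZ-HFD. The STZ-HFD libraries were nearly level, and Con+Veh replicates 3 and 4 were well above replicates 1 and 2. The log2 fold change was -1.67 (95% interval -2.50 to -0.83, limma adjusted p = 0.0293), and -1.65 (adjusted p = 0.0410) without STZ-HFD replicate 1. The related Lgr5, a stem cell marker in several tissues, was at 0.0540 to 0.756 CPM in Con+Veh and at 5.23, 1.2, 0.711 and 0.414 CPM in STZ-HFD, with the high value in replicate 1 (0.48, adjusted p = 0.784). Without that library the log2 fold change of Lgr5 was 0.29 (adjusted p = 0.859), and with it edgeR's quasi-likelihood test gave 1.93 (0.325).

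The 3 calls were lost in the same fits, as were most calls over all genes. Each was lost when Con+Veh replicate 3 was left out, with adjusted p of 0.312 for Fzd5, 0.338 for Lgr4 and 0.229 for Lgr6. Each was also lost without Con+Veh replicate 4 (0.120, 0.161 and 0.213), without STZ-HFD replicate 3 (0.313, 0.226 and 0.245) and without STZ-HFD replicate 4 (0.0955, 0.0951 and 0.0959). Over all genes 3.45% passed with every library, and 0.102%, 0.108%, 0.107% and 1.01% did without these 4 in turn. As single libraries were left out, the log2 fold change ran from -1.45 to -1.03 for Fzd5, from -0.83 to -0.72 for Lgr4 and from -1.89 to -1.21 for Lgr6. Con+Veh replicates 3 and 4 had 1048 and 1199 CPM on olfactory receptor genes, against 132 and 72.2 in replicates 1 and 2. Without both libraries whose names end in RIP (Con+Veh replicate 2 and STZ-HFD replicate 4) adjusted p was 0.115, 0.111 and 0.0598. edgeR's quasi-likelihood test passed 0 members and 0.171% of all genes, with 14 members at an unadjusted p under 0.05 (10 lower), and its adjusted p was 0.123 for Fzd5, 0.194 for Lgr4 and 0.188 for Lgr6. DESeq2 passed Fzd5 (0.0210) and Lgr6 (0.0256).

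**Figure D4:**
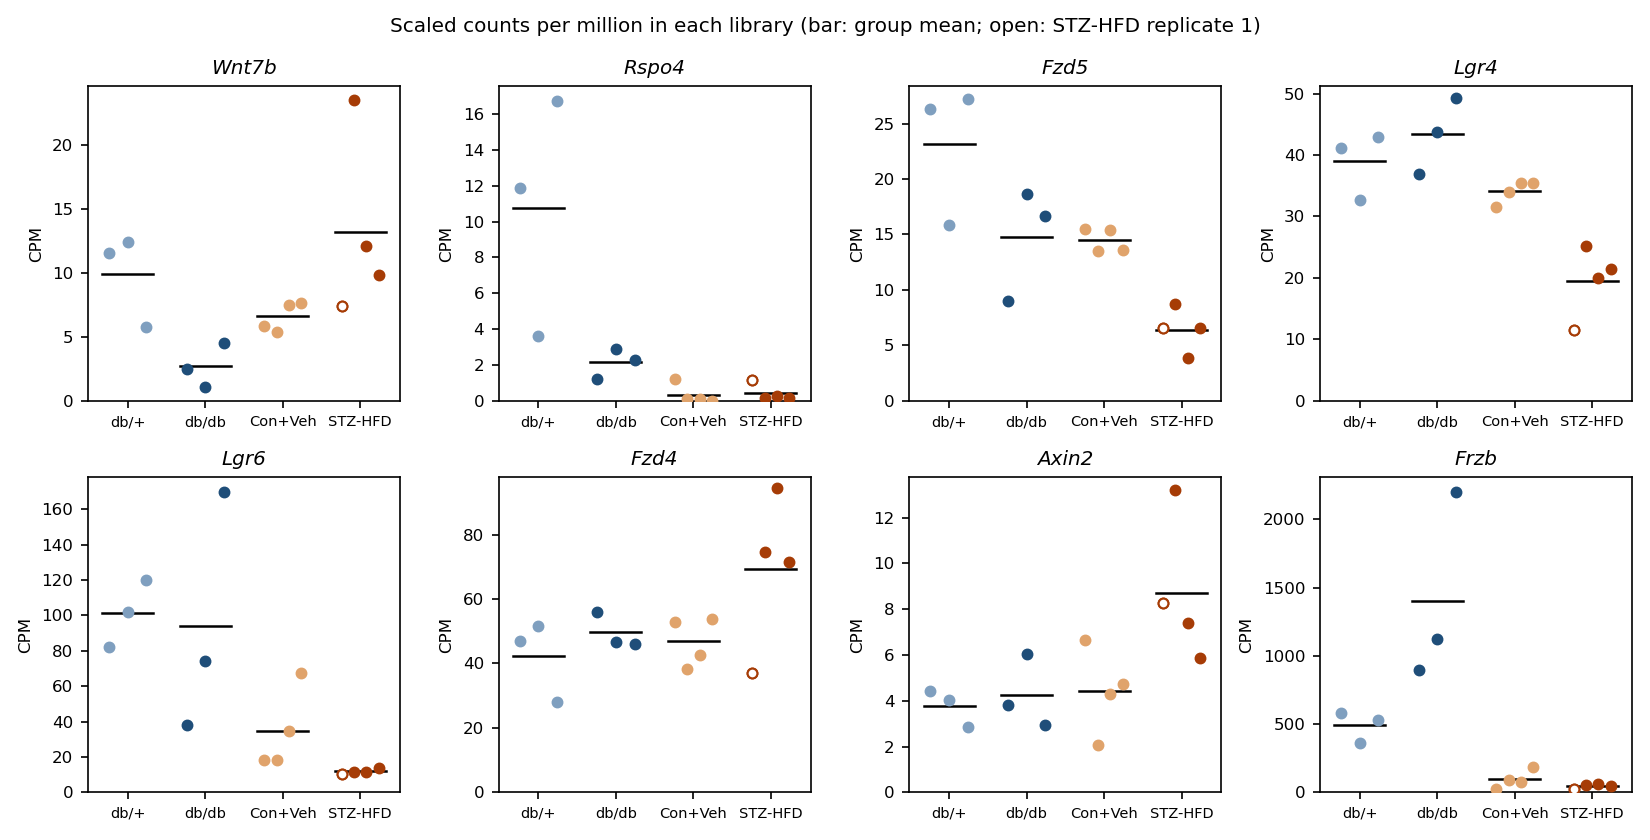
CPM of 8 members in each library, with 1 point per mouse, bars at group means, an axis from 0 and STZ-HFD replicate 1 as an open circle. STZ-HFD lies below Con+Veh without overlap for Fzd5, Lgr4 and Lgr6, db/db lies below db/+ without overlap for Wnt7b and Rspo4, and the open circle is the one STZ-HFD library not above Con+Veh for Fzd4.

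Fzd4, the most abundant frizzled receptor and a receptor for norrin in vessels, had 52.9, 38.3, 42.6 and 53.9 CPM in Con+Veh and 37.0, 74.7, 94.4 and 71.4 CPM in STZ-HFD. All STZ-HFD libraries but replicate 1 were above all controls. The log2 fold change was 0.70 (95% interval 0.23 to 1.18, limma adjusted p = 0.0972), and without replicate 1 it was 0.84 (adjusted p = 0.0358), past the threshold. This was the 1 of 14 fits without a single library in which Fzd4 passed, with adjusted p up to 0.611. Fzd8 had 19.4, 6.08, 14.6 and 31.1 CPM in Con+Veh and 7.52, 10.8, 5.96 and 5.74 CPM in STZ-HFD, which overlap at the low control replicate 2 (-1.37, adjusted p = 0.0745), and it passed without that library (-1.68, adjusted p = 0.0160). Fzd8 passed in 2 of 14 fits without a single library, with adjusted p up to 0.437. Fzd9 differed by 0.14 on the log2 scale (adjusted p = 0.875) and Fzd7 by 0.10 (adjusted p = 0.857). The frizzled genes thus ran in both directions, with 5 of 10 above 0. Of the 10 frizzled genes 6 have a single exon in the annotation.

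Secreted antagonists were mostly lower in STZ-HFD by estimate, though no single one passed: 11 of the 12 tested had a log2 fold change below 0, against 52.8% of all genes, with a median of -0.96 and 6 at an unadjusted p under 0.05 (9.54% of all genes were lower at that level). The median was -0.66 in edgeR's quasi-likelihood test and -0.64 in DESeq2, again with 11 of 12 below 0. Frzb had 23.8, 92.8, 76.1 and 186 CPM in Con+Veh and 25.5, 53.3, 59.4 and 47.3 CPM in STZ-HFD (-0.98, 95% interval -1.72 to -0.24, limma adjusted p = 0.141). Wif1 had 3.11, 10.002, 11 and 15.5 CPM against 5.44, 4.38, 4.14 and 5.23 CPM (-1.25, 95% interval -2.11 to -0.39, adjusted p = 0.102). For both, Con+Veh replicate 1 was the lowest control and lay below every STZ-HFD library, while the other 3 controls were above all of them. Wif1 passed when that control was left out (-1.35, adjusted p = 0.0442). This was the 1 of 14 fits without a single library in which Wif1 passed, with limma adjusted p up to 0.514.

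Further antagonists also did not separate the groups. Sfrp5, an Sfrp family member also known as an adipokine, had 10.6, 4.53, 12.2 and 17.8 CPM in Con+Veh and 5.36, 13.4, 5.28 and 3.84 CPM in STZ-HFD (-1.16, limma adjusted p = 0.119), and it passed without Con+Veh replicate 2 (-1.42, adjusted p = 0.0291). This was the 1 of 14 fits without a single library in which Sfrp5 passed, with adjusted p up to 0.557. Dkk3, a divergent Dkk family member, had 18.5, 16.4, 29.1 and 41.8 CPM against 9.20, 28, 19.2 and 12.1 CPM (-0.90, adjusted p = 0.128). Sost had 2.05, 3.06, 6.83 and 9.45 CPM against 1.59, 4.31, 3.83 and 3.87 CPM (-0.77, adjusted p = 0.448). Each of the 3 overlapped between groups. STZ-HFD replicate 2 was the highest of its group for all 3 genes, and the lowest controls were replicate 2 for Sfrp5 and Dkk3 and replicate 1 for Sost. Con+Veh replicate 4 was the highest control for all 3, as it was for Frzb and Wif1. Dkk1 was low in both groups, at 0.269 to 4.11 CPM in Con+Veh and 0.0618 to 1.59 CPM in STZ-HFD (-1.62, 95% interval -3.79 to 0.54, adjusted p = 0.441). For Dkk1 the log2 fold change was -2.05 without STZ-HFD replicate 1, -2.26 without Con+Veh replicate 2, -2.14 without STZ-HFD replicate 4, -0.87 without Con+Veh replicate 4 and -0.13 without STZ-HFD replicate 3. Dkk2 was the antagonist above 0 (0.31, adjusted p = 0.776). Without STZ-HFD replicate 1, again 11 of 12 were below 0, with a median of -0.94. Over the 14 fits without a single library, Frzb ran from -1.31 to -0.51, Wif1 from -1.35 to -0.99 and Sfrp5 from -1.46 to -0.72. Dkk3 ran from -1.12 to -0.61 and Sost from -0.97 to -0.37.

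Markers of several cell types differed in these libraries. All 9 tested chondrocyte markers were below 0 in STZ-HFD, with a median log2 fold change of -1.45 and 5 passing, and their summed level was 1461 to 3431 CPM in Con+Veh and 654 to 1380 CPM in STZ-HFD. Of 10 osteoblast and osteocyte markers 8 were below 0 (median -0.83, 2 passing), at 1273 to 2700 against 703 to 2471 CPM in sum. Muscle markers went the other way, with 10 of 10 above 0 (median 1.02, 3 passing), at 5556 to 7271 against 6109 to 16100 CPM. Macrophage markers were below 0 in 8 of 8 (median -1.15, 3 passing), Schwann cell markers in 6 of 6 (median -1.03, 0 passing) and annulus fibrosus and tendon markers in 5 of 6 (median -0.62, 2 passing), and adipocyte markers were above 0 in 8 of 8 (median 0.64, 1 passing). The Schwann cell list differed in sign between measures, since its unweighted mean level was 5.88 log2 CPM in Con+Veh and 6.31 in STZ-HFD. None of the listed genes in these lists was at 0 in a whole group. Of the 5 tested nucleus pulposus and notochord markers 4 were above 0 in STZ-HFD (median 0.25, 0 passing). The part of these cell types in the members' values was not tested.

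**Figure D5:**
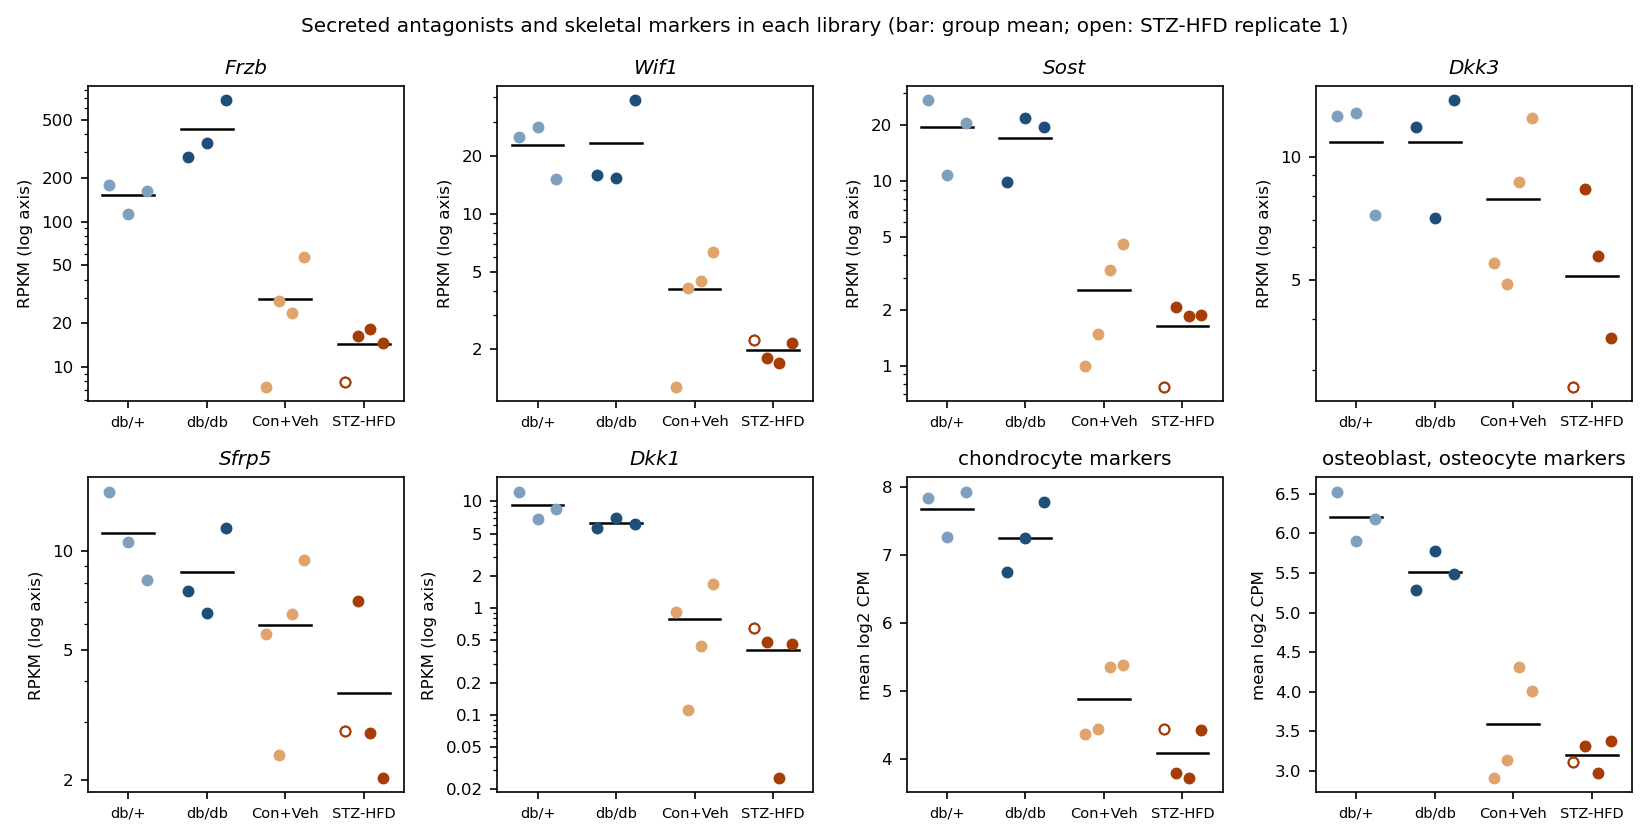
RPKM of 6 secreted antagonists on log axes, and the mean log2 CPM of 10 chondrocyte and 10 osteoblast and osteocyte markers, with 1 point per library, bars at group means and STZ-HFD replicate 1 as an open circle. Frzb, Wif1, Sost and Dkk1 and both marker lists are higher in every library of the first cohort than in any of the second.

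Among effectors in STZ-HFD, Tcf7l2, a DNA-binding partner of beta-catenin, had 277, 143, 193 and 191 CPM in Con+Veh and 90.6, 137, 130 and 121 CPM in STZ-HFD. The groups did not overlap, though control replicate 2 was just above the highest STZ-HFD library (log2 fold change -0.63, 95% interval -1.06 to -0.21, limma adjusted p = 0.0954). Lef1, a factor of the same family, had 17.5, 12.8, 16.8 and 29.6 CPM against 14.4, 4.31, 6.49 and 11.2 CPM (-1.28, adjusted p = 0.0856), and Tcf7l1, mostly a repressor, had a log2 fold change of -0.83 (adjusted p = 0.0905). Ctnnb1 had one of -0.44 (95% interval -0.95 to 0.06, adjusted p = 0.351). Lef1 shares 1208 exonic bases with an antisense gene model, and Ctnnb1 shares 759 with Ulk4.

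Axin2, the feedback gene most often read as a sign of canonical signaling, was estimated higher where most effectors were lower. It had 6.65, 2.07, 4.30 and 4.75 CPM in Con+Veh and 8.26, 13.2, 7.41 and 5.88 CPM in STZ-HFD. The lowest STZ-HFD library lay below the highest control, and the other 3 lay above all controls (0.86, 95% interval 0.16 to 1.56, limma adjusted p = 0.173). With gene totals of the transcript counts the Axin2 log2 fold change was 3.10 (adjusted p = 0.230). Among co-receptors, Lrp5 had a log2 fold change of -0.45 (95% interval -0.85 to -0.05, adjusted p = 0.214) and Lrp6 one of -0.21 (95% interval -0.55 to 0.13, adjusted p = 0.543). Rspo3, the most abundant R-spondin by the mean over all libraries, had 6.35, 5.83, 6.68 and 6.48 CPM in Con+Veh and 2.66, 6.70, 4.17 and 5.17 CPM in STZ-HFD (-0.46, adjusted p = 0.559). In db/+ Rspo4 (4.53 RPKM) was above Rspo3 (3.82). No tested ligand passed or had an unadjusted p under 0.05 in STZ-HFD, and the 10 tested ran from -0.39 to 0.74.

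The response of 1 member differed between the models in a direct test, the STZ-HFD response minus the db/db response: Wnt7b, with a difference of 2.82 on the log2 scale (95% interval 1.62 to 4.02, limma adjusted p = 0.0247). Over all genes 1.77% passed this test (0.952% higher and 0.822% lower). At an unadjusted p under 0.05 there were 2 members higher and 9 lower, 11 in all, against 17.3% of all genes (8.35% and 8.94%), and 34 of 49 were below 0, against 51.5%. Wnt7b had 5.86, 5.35, 7.53 and 7.67 CPM in Con+Veh and 7.40, 23.5, 12.1 and 9.82 CPM in STZ-HFD, a log2 difference of 0.74 (95% interval -0.03 to 1.51, adjusted p = 0.301). It was thus lower in db/db and by estimate higher in STZ-HFD. The difference was 2.45 with the GC trend removed (adjusted p = 0.0364) and passed in DESeq2 (0.00364), but not in edgeR's quasi-likelihood test (0.137), which passed 0 members and 0.0296% of all genes, with 6 members at an unadjusted p under 0.05. It was lost without db/+ replicate 1 (0.0553), db/+ replicate 2 (0.0728), Con+Veh replicate 3 (0.118) or STZ-HFD replicate 3 (0.0646). Frzb had a difference of -2.44 (adjusted p = 0.0566), and DESeq2 passed it (0.0178), but edgeR's quasi-likelihood test did not (0.219). It passed in 1 of 14 limma fits without a single library, with adjusted p up to 0.167.

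The 2 control groups held different levels of several members, given here without a test. Cohort, age, genotype (db/+ against wild-type), diet and the buffer injection of Con+Veh cannot be told apart. In every library db/+ stood above Con+Veh for 13 tested members: Wnt5b, Fzd5, Lrp5, Lrp6, Dkk1, Frzb, Notum, Sost, Wif1, Lgr6, Rspo4, Axin1 and Lef1. It stood below Con+Veh for 2, Wnt9a and Dkk2. Of all tested genes 9.36% stood above in this way and 8.94% below. Sost averaged 19.6 RPKM in db/+ and 2.59 in Con+Veh, Dkk1 averaged 9.18 and 0.792, and Rspo4 averaged 4.53 and 0.150. Osteoblast and osteocyte markers summed to 16880 to 19230 CPM in db/+ and 1273 to 2700 CPM in Con+Veh in the same libraries, and their part in these levels was not tested. The receptors Fzd4 and Fzd7 and the ligand Wnt5a overlapped between the control groups.

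Beyond these 60 genes, 74 other pathway genes were listed by role, and 71 of them were tested. In db/db 0 of the 71 passed in limma, with 24 at an unadjusted p under 0.05 (9 higher and 15 lower), against 21.1% of all genes, of which 1.93% passed. In STZ-HFD 0 rose and 4 fell, where 1.65% of all genes rose and 1.8% fell, and 1 was higher and 15 lower at an unadjusted p under 0.05, against 8.34% and 9.54% of all genes. Ccnd1, encoding the cell cycle driver cyclin D1 and a known Wnt target, had 55.5, 26.9, 46.3 and 35.8 CPM in Con+Veh and 12.6, 32.1, 15.1 and 22 CPM in STZ-HFD (log2 fold change -1.08, adjusted p = 0.0269). Cd44, a hyaluronan receptor and Wnt target, had 42.3, 57.7, 58.9 and 42.5 CPM against 26.0, 23, 19.3 and 39.0 CPM, without overlap (-0.97, adjusted p = 0.0237). The remaining 2 were uneven among controls: Pygo2, a beta-catenin cofactor, had 5.84, 9.42, 479 and 737 CPM in Con+Veh and 12.2, 20.6, 23.3 and 56.7 CPM in STZ-HFD (-3.50, adjusted p = 0.0234), and Amer1, a partner of the destruction complex, had 20.1, 18.0, 50.0 and 63.8 CPM against 15.8, 28.6, 21.0 and 25.6 CPM (-1.03, adjusted p = 0.0421). Both were high in Con+Veh replicates 3 and 4 alone. Each of the 4 was lost without Con+Veh replicate 3, Con+Veh replicate 4 or STZ-HFD replicate 3, with adjusted p up to 0.502 for Amer1, 0.484 for Pygo2 and 0.394 for Ccnd1 and for Cd44. Pygo2 and Ccnd1 were also lost without STZ-HFD replicate 4, Cd44 without STZ-HFD replicate 2, and Amer1 in 11 of 14 such fits. None passed edgeR's quasi-likelihood test (adjusted p between 0.146 and 0.390). Of the 8 tested Wnt target genes 2 fell in STZ-HFD (1.8% of all genes did), and the list's median log2 fold change was -0.62, against -0.04 over all genes. In db/db 0 of the 8 passed and the median was -0.16, against -0.04. Lepr also fell in STZ-HFD, from 22.8, 20.1, 25.9 and 21.9 CPM to 9.36, 9.20, 10.4 and 13.0 CPM (-1.11, adjusted p = 0.0107), a call lost without Con+Veh replicate 3 or 4 or STZ-HFD replicate 3 (adjusted p up to 0.235).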

How the data were processed

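Gene counts and transcript counts of 14 libraries were used as deposited. Per the labels and methods the authors aligned reads with STAR to GRCm38 (Ensembl release 101 in the methods) and counted them per gene with featureCounts, giving raw counts, and the authors' deposited transcript table holds Salmon estimated counts, rounded here and summed per gene for an alternative only. The libraries were made from amplified cDNA, and no strand setting is given in the sources used here. The table's 55774 lines held 287 repeated lines, leaving 55487 genes, of which 55227 matched GENCODE M21, whose exon lengths gave RPKM.

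Groups were taken from sample titles. Each library is 1 mouse, so p-values measure spread between mice, with libraries weighted unequally by the fit. Con+Veh replicates 3 and 4 had weights of 3.05 and 1.81, and replicates 1 and 2 had 0.275 and 0.462. In voom without these weights 0.112% of all genes passed in STZ-HFD and 0.0532% in db/db, against 3.45% and 1.93% with them. Counts were scaled by TMM (edgeR 4.0.16), and genes above 1 CPM in at least 3 libraries were fitted with limma 3.58.1 voomWithQualityWeights in R 4.3.3, all 4 groups in 1 fit, with Benjamini-Hochberg adjustment over all 16915 genes and a threshold of 0.05. Named genes were members passing that threshold, the 3 most abundant per role, Axin2, Ctnnb1, Lrp5, Lrp6, Sost, Dkk1 and Lepr, and up to 4 other pathway genes per model. Further members were named after their values were seen. As alternatives, results were recomputed with DESeq2 1.42.0, with edgeR's quasi-likelihood test, and with other scalings, filters and weights, removal of each library's GC trend over 20 bins, a replicate block, transcript totals and omission of libraries. Members and lists were chosen with earlier results of these data known. Depth was 16076908 to 58943169 counts per library, ribosomal RNA included, and floors cover counting error only. The fit was tested on simulated data. No libraries agreed within sampling noise, judged by a chi-square of their counts per degree of freedom. Con+Veh replicates 3 and 4 came nearest (47.2), against 254 to 497 for the other pairs of that group. Motifs were counted in RefSeq promoters (GRCm38.p6).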

Additional observations from a re-analysis of the deposited data

Results flagged for a closer look

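In groups of 4 libraries, a member was picked out where its highest or lowest library was separated from the nearest by an unusually large share of the group's range (Dixon's test). Chance alone picks out about 1 in 20 groups of independent normal values, and 14 of the 120 looked at were. Several members had counts at or near 0 and all share the same libraries, so that rate is no measure for these groups. STZ-HFD replicate 1 was the high library for 10 of them, at 1.59 CPM for Wnt1 (others 0 to 0.124), 3.11 for Wnt10a (0 to 0.207), 4.66 for Wnt3 (0 to 0.0684), 1.23 for Wnt3a (all others 0), 1.15 for Wnt7a (0.0342 to 0.185), 0.409 for Wnt8a (0 to 0.0296), 2.66 for Wnt9b (0.124 to 0.479), 5.23 for Lgr5 (0.414 to 1.2), 3.27 for Rspo1 (0.216 to 0.479) and 1.15 (1.145 before rounding) for Rspo4 (0.137 to 0.278). This is the library with counts on 1071 of 1103 olfactory receptor genes, and a common source was not tested. Con+Veh replicate 1 was high for Wnt8a (0.297 CPM, others 0 to 0.0467) and Rspo4 (1.24 CPM, others 0 to 0.0935). STZ-HFD replicate 2 was high for the antagonists Sfrp2 (5.61 CPM, others 0.618 to 0.736) and Sfrp5 (13.4 CPM, others 3.84 to 5.36).

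The response of Wnt7b differed between the models by 2.82 on the log2 scale in the direct test (limma adjusted p = 0.0247), with all 3 db/db libraries below db/+ and 3 of 4 STZ-HFD libraries above every Con+Veh library.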

How the results depend on the processing

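Over 48 fold changes of 30 members recomputed 1277 times under other settings, 1170 kept their direction and their side of the threshold, 71 lost and 24 gained a call, and 12 reversed. Most of these fold changes had no call to lose. In settings with every single library kept or not omitted alone, Wnt7b in db/db passed in 9 of 12, Rspo4 in 4 of 13 and Fzd5 in 5 of 13. Lgr4 passed in 3 of 13, Lgr6 in 5 of 12 and the Wnt7b difference in 7 of 11. As single libraries were left out, Rspo4 passed in 4 of 14 fits and each of the others in 10 of 14. Counts of members lower in db/db (2 in the report) were 0 with edgeR's quasi-likelihood test, voom without quality weights, transcript totals and the GC trend removed, and 1 with DESeq2, filterByExpr, no filter, without the RIP libraries and each model alone, with 0 to 2 as single libraries were left out. Members higher in db/db (0) numbered 1 with no filter and with each model alone (Frzb in both). Members lower in STZ-HFD (3) numbered 0 with the quasi-likelihood test, voom without weights, filterByExpr, no filter, transcript totals and without the RIP libraries, and 0 to 5 as single libraries were left out. Members higher in STZ-HFD (0) ranged over 0 to 1. Members whose responses differed (1) numbered 0 with the quasi-likelihood test and voom without weights and 2 with DESeq2, and 0 to 2 as single libraries were left out. Wnt7b and Lgr6 had no value with transcript totals and could not pass there. RLE scaling and removal of ribosomal RNA genes changed no count. Where a cause is not given by the setting itself, it was not tested.

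Replicate numbers are shared between groups but did not pair the mice: deviations of same-numbered libraries correlated at -0.091 on average in the first cohort and -0.111 in the second, and 2 of 14 libraries correlated best with their own number. With the number as a replicate block, 4 members were higher and 8 lower in db/db, where 20.2% of all genes passed, 0 were lower in STZ-HFD (0.0355% of all genes passed) and 0 differed between models (0.0118%). With the GC trend also removed these were 6, 4, 0 and 0, where 9.99% of all genes passed in db/db, 0.0118% in STZ-HFD and 0% between models.

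Reversals were small or came from transcript totals, where Axin2 (-1.53), Ctnnb1 (0.017) and Wnt5a (-0.90) in db/db, Lef1 (0.62) and Wif1 (1.25) in STZ-HFD and the difference for Wif1 (1.43) changed sign. Sost in db/db was 0.012 with no filter and 0.25 with the GC trend removed, and as single libraries were left out Sost ran from -0.55 to 0.23 (0.16 without db/+ replicate 1) and Axin2 from -0.17 to 0.37 (-0.05 without db/+ replicate 3). Depth limits members under 1 CPM, where floors were 0.0509 to 0.187 CPM.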
